A study of Homo sapiens with 4 samples.

Results

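Multidrug efflux transporters of the ATP-binding cassette (ABC) family were followed in PANC-1, a pancreatic ductal adenocarcinoma cell line, and in its knockdown (KD) clone PZT-2. The 9 transporters were taken by symbol: ABCB1, ABCB4, ABCC1, ABCC2, ABCC3, ABCC4, ABCC5, ABCC10 and ABCG2. Of these, 7 had counts, among 15220 genes with counts in the series. The study asked what loss of the histone variant H2A.Z does to pancreatic cancer cells, including their response to chemotherapy.

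The data are 4 RNA-seq libraries, 2 of each cell line, both grown in DMEM with 10% FBS and taken at passage p12-p13. PANC-1 was the untransduced parent (wild type). PZT-2 was transduced with lentiviral short hairpin RNAs against all isoforms of H2A.Z, selected in puromycin, which the parent was not, and is 1 clone, so the effects of the knockdown, of transduction and selection, and of picking 1 clone cannot be told apart here. Libraries of cells with a scrambled hairpin were not analysed here. The study calls the replicates of each line biological. The labels do not say how the samples of a line were kept apart.

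The targeted genes served as a check of the labels. H2AFZ, which encodes H2A.Z.1, had 6389 and 6033 normalized counts in PANC-1 and 2212 and 2259 in PZT-2. Its log2 fold change was -1.47 ± 0.06 (SE; edgeR quasi-likelihood test, Benjamini-Hochberg adjusted p = 6.19e-05). H2AFV, which encodes the H2A.Z.2 isoforms, fell by 0.36 on the log2 scale (SE 0.06, edgeR adjusted p = 0.00572). Recovered library totals ran from 12860804 to 15715953 estimated counts. The variance between replicates was 6.24 times the counting variance in PANC-1 and 3.52 times in PZT-2, so the replicates differed by more than sampling noise. All 7 epithelial markers had counts, though CDH1 was at 0 in PZT-2 replicate 1. Their summed level was 7300 and 7442 TPM (a length-corrected share of the library's transcripts) in PANC-1 and 4092 and 3986 TPM in PZT-2. Most of this sum was KRT8, KRT18 and KRT19. EPCAM overlapped between the lines (7.99 and 8.44 against 8.4 and 6.75 TPM), while each other epithelial marker lay lower in PZT-2. The mesenchymal filament VIM had 6400 and 6500 TPM in PANC-1 and 4870 and 4740 TPM in PZT-2. None of the 4 acinar and 3 endocrine markers had counts, and of the leukocyte markers CD68 alone did, at 117 to 130 TPM. Endothelial markers summed to 0.0804 to 0.236 TPM. Of 4 fibroblast markers 2 had counts, COL1A1 with 10.5 and 11.7 TPM in PANC-1 and 3.83 and 3.03 TPM in PZT-2, and PDGFRB with 0.191 and 0.228 TPM against 0.352 and 0.298 TPM. The part of these markers in the results that follow was not tested. In bulk RNA, fewer cells of a kind and less RNA per cell cannot be told apart.

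ABC transporters bind and split ATP on the inner side of the membrane and use that energy to push substrates across it. P-glycoprotein (ABCB1), the multidrug resistance-associated proteins (MRPs, the ABCC members here) and the breast cancer resistance protein (ABCG2) together export a wide range of anticancer drugs, along with organic anions and conjugates of glutathione, glucuronic acid and sulfate. Several MRPs need glutathione as a partner or carry drugs only after conjugation. In pancreatic cancer they are studied as one of several routes by which cells lower the drug they hold, next to uptake and activation of nucleoside drugs.

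Promoter sequence is shown for ABCC2 and ABCG2, which had the deepest falls among the transporters, and for ABCC5, which rose, because H2A.Z sits in the nucleosomes that flank transcription start sites. The sequences come from RefSeq windows on GRCh38.p14, written 5′ to 3′ on the strand of the gene and ending before the first exon of the gene in GENCODE 29. Of the 9 transporters 6 matched the RefSeq windows, with 12 windows in all. ABCC1, ABCC3 and ABCB4 were not among them. Capitals mark TATAAA, or the GC box GGGCGG read on either strand. The window of ABCC2 covers chr10:99782390-99782639 on the + strand, which are the 250 bases before the start. For ABCC5 the stretch is chr3:184018016-184018134 on the - strand, from 250 to 132 bases before the start. For ABCG2 it is chr4:88159025-88159159 on the - strand, from 250 to 116 bases before the start, and it was taken from the 5 ABCG2 windows because it holds a GC box.
ABCC2: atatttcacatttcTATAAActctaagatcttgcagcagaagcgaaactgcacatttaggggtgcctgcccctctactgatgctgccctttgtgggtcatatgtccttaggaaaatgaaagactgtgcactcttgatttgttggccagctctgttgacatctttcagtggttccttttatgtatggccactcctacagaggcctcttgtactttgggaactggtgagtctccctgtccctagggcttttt
ABCC5: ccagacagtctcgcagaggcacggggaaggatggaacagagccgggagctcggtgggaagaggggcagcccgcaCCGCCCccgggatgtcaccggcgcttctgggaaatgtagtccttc
ABCG2: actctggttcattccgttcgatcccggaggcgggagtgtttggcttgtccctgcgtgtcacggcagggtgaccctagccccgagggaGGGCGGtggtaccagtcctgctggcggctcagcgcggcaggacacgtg

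The ABCC2 stretch held 1 CpG and 45.6% G and C. That of ABCC5 held 9 CpG in 119 bases with 66.4% G and C, and that of ABCG2 12 CpG in 135 bases with 66.7%. Over the whole 250 upstream bases, the ABCC5 window held 21 CpG (64.8% G and C) and this ABCG2 window 27 CpG (71.2%), beside a median of 11 CpG and 58.0% over all 35116 windows. The other 4 ABCG2 windows differed widely, with 2, 5, 29 and 32 CpG, and 1 of them also held the GC box. TATAAA, searched on both strands, was found in 10.7% of those windows and GGGCGG in 42.6%. The 250 bases of ABCC5 also held 1 TATAAA, outside the printed stretch, and those of the printed ABCG2 window held 2 GGGCGG in all. These matches describe letters and not bound sites, and the files hold no measurement of H2A.Z at the promoters.

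Of the 7 efflux transporters with counts, 2 rose in PZT-2 (ABCC3 and ABCC5), 3 fell (ABCC1, ABCC2 and ABCG2) and 2 did not pass the test (ABCC4 and ABCC10). The fitted changes were below 2-fold in either direction. Over all 15100 genes tested, 28.4% passed the same threshold, 14.7% as higher (2222 genes) and 13.7% as lower (2069 genes). A limma-trend fit on log2(TPM + 1) split its calls into 2369 higher and 1446 lower. The median log2 fold change was -0.24 over the 7 transporters and 0.00 over all genes (edgeR). The libraries of the 5 called transporters did not overlap between the cell lines, as was so for 66.2% of all genes tested.

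**Figure D1:**
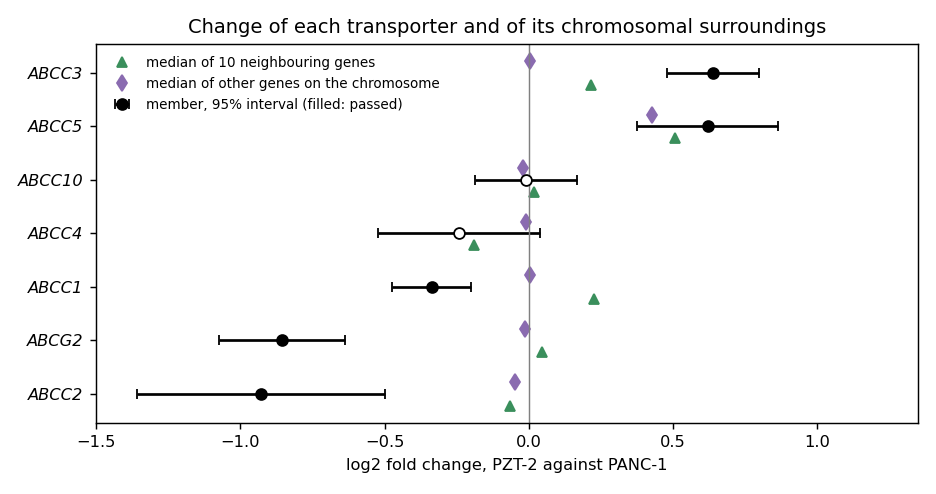
The log2 fold change of each transporter in PZT-2 against PANC-1 (x axis, circles, bars are 95% intervals from the edgeR quasi-likelihood fit over 2 libraries a line, filled where the adjusted p passed 0.05), with the median change of 10 neighbouring genes (triangles) and of the other genes of its chromosome (diamonds). ABCC5 lies at 0.62 with its neighbours at 0.51 and its chromosome at 0.43, while ABCC3 at 0.64 lies above a chromosome median of 0.00.

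ABCB1, the P-glycoprotein that pumps taxanes, anthracyclines and vinca alkaloids, had 4 listed transcripts and no count row in any library. ABCB4, the phosphatidylcholine floppase of the bile canaliculus and the closest relative of ABCB1, had 3 listed transcripts and again no count row. The table holds only transcripts above a minimum, since the lowest maximum of any transcript in it was 4.67 deposited counts. So each of their listed transcripts fell below what the table keeps, low counts are possible, and no level or fold change is given.

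ABCC1 (MRP1) exports glutathione and glucuronide conjugates and several anthracyclines and vinca alkaloids. It was the most abundant transporter of the set in all 4 libraries. It had 8955 and 8640 normalized counts in PANC-1 and 7241 and 6690 in PZT-2 (replicates 1 and 2). The lines did not overlap, with PZT-2 the lower. Its log2 fold change was -0.34 ± 0.06 (SE), with a 95% interval of -0.47 to -0.20 and an edgeR adjusted p of 0.00691. Without PZT-2 replicate 2 the adjusted p was 0.0692 at a log2 fold change of -0.28.

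ABCC3 (MRP3), a basolateral exporter of glucuronides and bile salts that also carries etoposide and methotrexate, rose by about as much as ABCC5. Its normalized counts were 2212 and 2027 in PANC-1 and 3381 and 3219 in PZT-2, with no overlap. This is 1.56-fold more in PZT-2, or a log2 fold change of 0.64 ± 0.07 (SE, 95% interval 0.48 to 0.80, edgeR adjusted p = 0.00131). ABCC2 (MRP2), which carries conjugates across the apical membrane and can export cisplatin and methotrexate, changed in the other direction. It was the rarest of the 7, with 93.4 and 100.3 normalized counts in PANC-1 against 51.3 and 50.4 in PZT-2. The fall was 0.93 on the log2 scale (SE 0.18, 95% interval -1.36 to -0.50, edgeR adjusted p = 0.0111). The log2 fold change stayed between -0.94 and -0.92 where the call was lost, which was with DESeq2 (adjusted p = 0.0595), with the most abundant transcript alone (0.0506), and with either PZT-2 library left out (0.0566 without replicate 1, 0.0697 without replicate 2).

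ABCC4, ABCC5 and ABCC10 complete the MRPs. ABCC5 (MRP5), an exporter of cyclic nucleotides and of nucleotide analogues such as those formed from fluorouracil, rose. It had 441 and 504 normalized counts in PANC-1 and 773 and 684 in PZT-2, which is 1.54-fold more and without overlap. The log2 fold change was 0.62 ± 0.10 (SE, 95% interval 0.38 to 0.87, edgeR adjusted p = 0.00626). ABCC4 (MRP4), which carries cyclic nucleotides, prostaglandins and nucleotide analogues, had 727 and 875 normalized counts in PANC-1 and 731 and 628 in PZT-2. These ranges overlapped, and the log2 fold change of -0.24 (95% interval -0.52 to 0.04) did not pass (edgeR adjusted p = 0.176). Without PANC-1 replicate 1, the lower of the PANC-1 libraries, it passed at -0.37 (adjusted p = 0.0193). ABCC10 (MRP7), an exporter of taxanes and vinca alkaloids, had 582 and 586 normalized counts in PANC-1 and 571 and 589 in PZT-2. Its log2 fold change was -0.01, with a 95% interval of -0.18 to 0.17 (edgeR adjusted p = 0.943).

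ABCG2 (BCRP) is a half-transporter that works as a dimer and exports mitoxantrone, topotecan, urate and porphyrins. It had 1214 and 1426 normalized counts in PANC-1 and 722 and 740 in PZT-2. Both PZT-2 libraries lay below the lower PANC-1 library. PANC-1 held 1.81-fold more, a log2 fold change of -0.86 ± 0.09 (SE, 95% interval -1.07 to -0.64, edgeR adjusted p = 0.00144). This sum takes in 6 transcripts, of which 4 carry no symbol in the deposited table and were named through their accession. With the transcripts that the table itself names, the log2 fold change was -0.71. Reads that could belong to more than 1 gene are few for the set, since between 0.198% (ABCC5) and 4.5% (ABCC10) of the 31-base words in the transcripts of any member with counts occur in another gene.

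Levels between genes were compared per length, as TPM. In PANC-1 the order was ABCC1 at 171 ± 0.849 TPM (SD, n = 2), ABCC3 at 60.7 ± 1.07 TPM, ABCG2 at 39.4 ± 5.36 TPM, then ABCC4 at 18.3 ± 2.69 TPM, ABCC10 at 16.5 ± 0.0919 TPM and ABCC5 at 16.0 ± 1.46 TPM, and last ABCC2 at 2.14 ± 0.151 TPM. The libraries of ABCC4, ABCC10 and ABCC5 all overlapped each other in this order. In PZT-2, ABCC1 stood at 141 ± 8.56 TPM, ABCC3 at 89.5 ± 3.73 TPM, ABCC5 at 23.5 ± 1.45 TPM, ABCG2 at 22.6 ± 0.198 TPM, ABCC10 at 17.0 ± 0.679 TPM, ABCC4 at 16.6 ± 2.29 TPM and ABCC2 at 1.17 ± 0.0191 TPM. By its mean, ABCC5 thus stood below ABCC4 and ABCC10 in PANC-1 and above both in PZT-2. There it was level with ABCG2, whose PZT-2 libraries it overlapped, as ABCC10 and ABCC4 overlapped each other. These levels are sums over transcripts. The ABCC5 transcript of the full transporter (NM_005688) alone had a mean of 7.5 TPM in PANC-1 and 13.1 TPM in PZT-2.

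**Figure D2:**
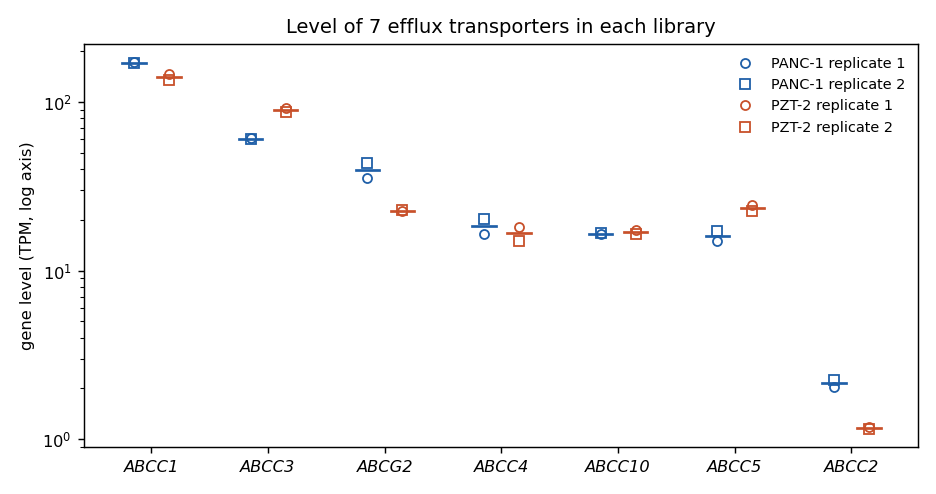
The level of each transporter (TPM, log axis) in the 4 libraries, with circles and squares for replicates 1 and 2 and a bar for the mean of a line (n = 2). ABCC1 leads at 135 to 172 TPM in every library, and ABCC2 lies lowest at 1.15 to 2.25 TPM.

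The summed level of the 7 transporters was 319 and 330 TPM in PANC-1 and 323 and 300 TPM in PZT-2, which overlapped. Its make-up differed between the lines. ABCC1 made up 53.9% and 51.7% of the sum in PANC-1 and 45.5% and 45.0% in PZT-2, and ABCC3 a mean of 18.8% against 28.8%. ABCG2 went from 11.2% and 13.1% to 6.96% and 7.6%, and ABCC5 from 4.7% and 5.17% to 7.6% and 7.51%. ABCC2 went from 0.638% and 0.681% to 0.366% and 0.385%, and ABCC10 from 5.16% and 5.03% to 5.41% and 5.51%. In these shares the libraries of these 6 genes did not overlap between the lines. In normalized counts, a different measure, 66.2% of all genes tested did not overlap. ABCC10 is among the 6 although its normalized counts overlapped. ABCC4 took 5.13% and 6.11% in PANC-1 and 5.65% and 5.0% in PZT-2. Shares within a sum are tied to each other, so they were given no test.

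**Figure D3:**
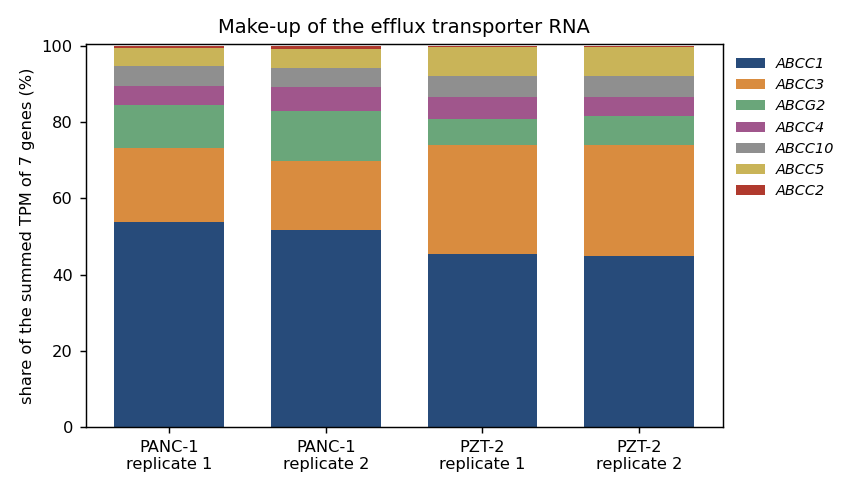
The share of the summed TPM of the 7 transporters (y axis, %) taken by each gene in each library (bars, from 0 to 100%). The mean ABCC3 share is 18.8% in PANC-1 and 28.8% in PZT-2.

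The transporters had 19 transcripts with counts, of which 18 were tested. None passed in edgeR, where 0.148% of all transcripts did (45 of 30403). At an unadjusted p under 0.05 there were 7, beside 5615 of all 30403 transcripts. DESeq2 called 6, beside 4358 of all 31077. The lowest edgeR adjusted p among the transcripts of the transporters was 0.0713.

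The ABCC3 transcripts differed in direction. NM_003786 encodes the full transporter of 1527 residues in 31 exons (GENCODE 29), with 2043 and 1840 normalized counts in PANC-1 and 3273 and 3119 in PZT-2. NM_001144070 has 12 exons and encodes 572 residues, and it had 168 and 197 normalized counts in PANC-1 and 102 and 89.7 in PZT-2. So the long form was higher in both PZT-2 libraries and the short form lower (log2 fold changes 0.72 and -0.93, edgeR adjusted p = 0.0713 and 0.149). The short form made up 7.58% and 9.67% of the ABCC3 counts in PANC-1 and 3.01% and 2.8% in PZT-2. The edgeR test of this short transcript against the change of its gene as a whole did not pass (diffSpliceDGE, adjusted p = 0.584). Its difference was -1.08 in natural log units, not on the log2 scale used elsewhere. Over all genes 15 of 22133 transcripts passed that test.

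For ABCC5, the transcript of the full transporter (NM_005688, 1437 residues) had 314 and 373 normalized counts in PANC-1 and 623 and 529 in PZT-2. The short coding transcript NM_001023587 (208 residues) had 58.5 and 38.1 against 114 and 75.9, and NR_135125 had 68.6 and 95.4 against 35.2 and 76.9. The first pair of transcripts did not overlap between the lines, while NR_135125 did. Non-overlap of transcripts, here and below, is a description, since its share over all transcripts was not counted. For ABCG2, NM_001348986 had 565 and 558 normalized counts in PANC-1 and 317 and 191 in PZT-2, and NM_004827, which encodes 655 residues, had 495 and 601 against 319 and 369. Both lay lower in both PZT-2 libraries. NM_001348987 had 133 and 151 against 32.2 and 117, and NM_001348988 had 14.6 and 23.6 against 12.1 and 0, again lower without overlap. The less abundant NM_001348989 had 0 and 99.9 in the PANC-1 replicates, so the split of ABCG2 reads between transcripts was unsteady within a line.

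ABCC1 (NM_004996) and ABCC2 (NM_000392) each had a single transcript. Those of ABCC4 lay apart in opposite directions, the shorter one narrowly, and neither passed the edgeR test. NM_005845 had 692 and 843 normalized counts in PANC-1 and 655 and 589 in PZT-2, and the shorter NM_001105515 had 34.9 and 36.3 against 74.3 and 37.5 (edgeR adjusted p = 0.378 and 0.672). The ABCC10 transcripts overlapped between the lines in all 4 cases. NM_001198934, the most abundant, had 287 and 374 normalized counts against 310 and 413, while NR_146762 and NM_033450 lay between 27.1 and 90.0 in every library. Shares moved between replicates of the same line, as for NM_001350518 with 25.0% and 6.71% of the ABCC10 counts in the PZT-2 replicates.

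Because PZT-2 is 1 clone, each transporter was set beside its chromosomal surroundings, taken as the 5 nearest tested genes on each side. ABCC5 lies on chromosome 3, and its 10 neighbours had a median log2 fold change of 0.51, with 7 called higher and none called lower. Over the 836 other genes of chromosome 3 the median was 0.43, with 48.0% called higher and 2.51% called lower. Both medians lie inside the 95% interval of ABCC5 (0.38 to 0.87). The part of the chromosome in the rise of ABCC5 was not tested. The neighbours of ABCC3 on chromosome 17 had a median of 0.22 (3 called higher), and those of ABCC1 on chromosome 16 a median of 0.23 (4 called higher), opposite in sign to ABCC1. For ABCG2 on chromosome 4 and ABCC2 on chromosome 10 the neighbours' medians were 0.05 and -0.07, and those of ABCC4 and ABCC10 were -0.19 and 0.02. Of the 10 neighbours of ABCG2, 2 were called lower and 0 higher. Over the other genes of chromosome 4, 13.6% were called lower and 13.2% higher. ABCC10 had 1 neighbour called in each direction, and ABCC2 and ABCC4 had 0 called.

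The other ABC transporters carry lipids, peptides, metals and fatty acids or, in the E and F groups, act on ribosomes. Of 39 listed genes 25 were tested, 2 were called higher and 5 lower, and the median log2 fold change was -0.15. On the log2 scale, ABCA2, a lipid transporter of the lysosome, rose by 0.52, and ABCF3 rose by 0.50. ABCF3 is itself one of the 10 neighbours of ABCC5. The mitochondrial ABCB8 fell by 0.48 on the same scale and the ribosome recycling factor ABCE1 by 0.37 (edgeR adjusted p from 0.00281 to 0.0176 for these 4 genes).

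Of 20 listed transcription regulators described for efflux genes, 18 were tested, 3 were called higher and 7 lower (median -0.15). PPARA, the nuclear receptor of fatty acids, rose by 0.63 (log2 scale), JUN by 0.42 and FOXO3 by 0.37. SP1, which binds GC boxes, fell by 0.41 (log2 scale). AHR, the receptor of dioxins that can induce ABCG2, had 649 and 600 normalized counts in PANC-1 and 425 and 425 in PZT-2 (log2 fold change -0.55 ± 0.08 SE, edgeR adjusted p = 0.00432). Both AHR and ABCG2 were thus lower in PZT-2, and no link between them was tested.

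Glutathione synthesis and transfer supply the conjugates that MRPs carry. Of 22 listed genes 20 were tested, 4 were called higher and 3 lower, with a median of 0.07. GCLC, the catalytic subunit of the rate-limiting enzyme of glutathione synthesis, had 528 and 597 normalized counts in PANC-1 and 1132 and 1090 in PZT-2 (log2 fold change 0.98 ± 0.08 SE, edgeR adjusted p = 0.000699). On the log2 scale its modifier subunit GCLM rose by 0.43 and glutathione reductase (GSR) by 0.47, while the transferases GSTK1 and GSTP1 fell by 0.38 and 0.25. MGST1, a transferase of internal membranes, had 118 and 117 counts in PANC-1 and 0 and 21 in PZT-2, 11.2-fold more in PANC-1 (exact 95% interval 7.19 to 18.5, counting error only). Of 18 listed glucuronidation and sulfation genes 4 were tested and 0 were called by edgeR, with 0 at an unadjusted p under 0.05 and 0 called by DESeq2.

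Among 16 listed anchoring and export partners 15 were tested, with 4 called higher and 4 lower (median -0.05). The copper pump ATP7B, which can export cisplatin, rose by 0.74 (log2 scale) while its relative ATP7A fell by 1.22. RAB11A, which recycles membrane proteins to the surface, rose by 0.52 (log2 scale). The scaffold SLC9A3R2 fell by 0.59 (log2 scale) and caveolin (CAV1) by 0.58. Among 19 organic ion uptake carriers 7 were tested, with 1 called higher and 1 lower (median 0.02). The folate and methotrexate carrier SLC19A1 rose by 0.28 on the log2 scale. The prostaglandin carrier SLCO2A1 had 11 and 7 counts in PANC-1 and 0 and 1 in PZT-2 (ratio 18.1, exact 95% interval 2.86 to 754.0, counting error only). MGST1 and SLC19A1 lost their call with DESeq2, which gave no adjusted p for SLCO2A1. The counts called in these lists are descriptions beside the 28.4% called over all genes. Among the genes named from the lists, ABCE1, ATP7B, FOXO3, GCLM, GSR, GSTK1, GSTP1, JUN, SLC19A1, SLCO2A1 and SP1 lost their call without PZT-2 replicate 2. With the other PZT-2 library left out it was lost for ABCE1, ATP7B, FOXO3, GSTP1, JUN, PPARA, SLC19A1 and SLCO2A1, and without PANC-1 replicate 1 for SLC19A1.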

How the data were processed

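The values come from 4 RNA-seq libraries, 2 of PANC-1 and 2 of PZT-2, grouped by their labels. The authors made stranded mRNA libraries, used Trim Galore 0.4.1 for trimming, kallisto 0.43.0 to quantify RefSeq transcripts and sleuth 0.29.0 to export the estimated counts (versions per the submitters' processing notes, which also name hg19). The deposited table gives estimated counts, TPM and effective lengths per transcript. A second deposited table pairs transcripts with symbols and holds the authors' own test of PZT-2 against PANC-1, which was not used.

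The deposited estimated counts carry 1 factor per library (1.16, 0.935, 1.03 and 1.01), which was undone. Among genes with 1 listed transcript, the share of values from 0.5 to 30 that were whole to within 0.01 went from between 0.654% and 2.52% to between 50.2% and 51.6%. Recovered totals were 12860804 and 15715953 for PANC-1 and 13955015 and 14174005 for PZT-2. Counts were rounded and summed per gene. Of 31077 transcripts, 27049 were named by the symbol table, 3925 by accession in RefSeq GRCh38.p14, and 103 with 0.0466% of counts stayed unnamed and out of the gene sums. TPM was recomputed from recovered counts and effective lengths.

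Genes or transcripts with at least 5 counts in at least 2 libraries were tested with edgeR 4.0.16 (TMM, quasi-likelihood) in R 4.3.3, with Benjamini-Hochberg adjustment over all of them and a threshold of 0.05. An exact permutation test of 2 against 2 libraries cannot go below p = 0.333, so none was made for single genes. For normalized counts, each library was scaled by its effective size to the mean library. The members and lists were chosen with earlier results of these data known. Named are all members, their transcripts with a mean of at least 10 counts, H2AFZ and H2AFV, and in each list up to 3 called genes with the largest rise and 3 with the largest fall at a mean normalized count of at least 100, plus any called gene changed at least 4-fold. A few genes that meet this rule are not reported here. Alternatives were RLE size factors, DESeq2 1.42.0, other filters, limma-trend (limma 3.58.1) on TPM, a replicate block, the deposited values, length-scaled counts, the most abundant transcript, a 2-fold minimum and each library left out. Naming by the symbol column alone and the test of a transcript against its gene were added after the data were seen.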

Additional observations from a re-analysis of the deposited data

How the results depend on the processing

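Over 7 transporters and 16 alternatives each, 96 of 112 values kept their direction and side of the threshold, 10 lost the call, 1 gained it and 5 changed sign. ABCC3, ABCC5 and ABCG2 lost their call only when the change was tested against a 2-fold minimum, where 0 transporters were called higher, 0 lower and 201 genes in all. The changes of sign were all of ABCC10, whose main log2 fold change was -0.00916. It became 0.0367 and 0.0386 (limma-trend with 1 and 0.1 added to TPM), 0.13 (most abundant transcript) and 0.068 (symbol column alone). Without PZT-2 replicate 1 it was 0.0138, and without any other single library it stayed negative, down to -0.0323 without PZT-2 replicate 2. The most abundant transcript alone gave 2125 called genes against 4291. With a library left out, called genes ranged from 1959 (without PZT-2 replicate 2) to 4717 (2373 without PZT-2 replicate 1), transporters called lower from 1 (without PZT-2 replicate 2) to 4 (without PANC-1 replicate 1), and the lone sample left is then assumed to vary like the other group. Transcripts of the transporters called were 6 with DESeq2 and 1 with at least 10 counts in all libraries, against 0. Over all transcripts these settings called 4358 of 31077 and 1201 of 20642, against 45 of 30403. Limma-trend on TPM gave 62.1% and 62.2% of calls as higher, against 51.8%. Among all transcripts 5615 had an unadjusted p under 0.05 in edgeR. Apart from the construction of the 2-fold test and of leaving out samples, the cause was not tested. The deviations of replicate 1 in PANC-1 and in PZT-2 had a correlation of -0.0237 over genes. With 2 libraries a line, such a value cannot tell whether libraries were handled in pairs. With the replicate block 3697 genes were called, 2 transporters were called higher and 3 lower, and 0 of their transcripts. Among the transporters with counts ABCC2 had the fewest, 51 to 111 a library.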
